A study of Homo sapiens with 6 samples.

Results

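The RNA of 10 genes of the NF-κB system was compared between NRF2null-KYSE70 cells and their parent KYSE70, a cell line established from a human esophageal squamous cell carcinoma (ESCC) that carries mutant NFE2L2. NRF2null-KYSE70 was derived from it by CRISPR-Cas9 editing of NFE2L2, the gene of the transcription factor NRF2, followed by growth from a single cell. Both lines were untreated and grown in the same serum-containing medium, and 3 libraries of total RNA were sequenced from each. The 10 genes were chosen by name, with earlier results of these data known. They are the 5 NF-κB subunits (NFKB1, NFKB2, REL, RELA, RELB) and 5 genes that NF-κB is known to induce (NFKBIA, TNFAIP2, TNFAIP3, BIRC3, ICAM1). Each was found on 1 row of the 58884 genes in the deposited table. NRF2null-KYSE70 is 1 clone, so the spread between clones was not measured, and a difference between the groups is a difference between this clone and its parent.

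NF-κB is a family of transcription factors that act as dimers. In resting cells the dimers are held in the cytoplasm by inhibitors of the IκB family. In the canonical pathway, receptors for tumor necrosis factor, interleukin-1 or microbial products activate the IκB kinase complex, IκBα is degraded, and dimers of RELA or REL with the NFKB1 product enter the nucleus. In the non-canonical pathway, the kinase NIK drives the processing of the NFKB2 precursor, and dimers of RELB with the NFKB2 product are released. Several induced genes feed back on the pathway, among them NFKBIA and TNFAIP3. In squamous epithelium, NF-κB is best known for its role in inflammation and cell survival.

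The libraries held between 52072801 and 63975313 reads assigned to genes. NFE2L2, the edited gene, lay between 9839 and 10040 normalized counts in KYSE70 and between 5803 and 6434 in NRF2null-KYSE70. That is 61.4% of the parental mean, so its RNA was lower in the clone but still present. The study reports a faint, smaller NRF2 protein band in the clone and states that NRF2 was not completely lost there. All 10 squamous epithelial markers on a fixed list were expressed in both lines, with summed normalized counts of 339899 to 351663 in KYSE70 and 275842 to 294220.1 in NRF2null-KYSE70. KRT5 had the highest counts of the 10 in both lines and fell by 0.75 on the log2 scale. At the adjusted p, 7 of the 10 were higher and 3 lower, against 29.3% and 28.3% of all tested genes. The 12 leukocyte markers summed to 12.7 to 40.1 normalized counts in KYSE70 and 43.1 to 63.9 in NRF2null-KYSE70, and CD3D and MS4A1 were at 0 in every library. Most of the leukocyte sum in NRF2null-KYSE70 was PTPRC, at 42.6, 40.2 and 47.95 normalized counts against 1 read in all in KYSE70. CD79A went the other way without overlap, with 34 reads in all in KYSE70 and 1 in NRF2null-KYSE70, and was not tested. Endothelial markers summed to 138 to 159 and 293 to 499, with KDR at 0 throughout. VWF, the largest part of these sums, had means of 142 and 353 and rose by 1.28 on the log2 scale (limma adjusted p = 4.42e-05). TEK rose by 2.22 (limma adjusted p = 0.0076), with 23 reads in all in KYSE70, a mean under 10, and 93 in NRF2null-KYSE70. The other endothelial markers were not tested. Fibroblast markers summed to 3851 to 3973 and 3039 to 3452, with COL1A2, DCN and FAP at 0 throughout. Within that list COL1A1 and COL3A1 fell by 1.16 and 4.79 on the log2 scale, THY1 was higher by 0.15 (limma adjusted p = 0.0463), and PDGFRB had 0 reads in KYSE70 and 41 in NRF2null-KYSE70. COL3A1 had 24 reads in all in NRF2null-KYSE70, a mean under 10 normalized counts. What part other cell types had in the results below was not tested, and in bulk RNA fewer cells of a type and less RNA per cell cannot be told apart.

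Within the family, the subunit genes NFKB2 and RELB and some of the targets were higher in NRF2null-KYSE70, and the other members showed little difference. NFKB2 was 1.92-fold, RELB 2.74-fold, BIRC3 3.10-fold and ICAM1 7.94-fold higher in the clone. NFKB1, REL, NFKBIA, TNFAIP2 and TNFAIP3 did not pass the test, and RELA passed it with a difference of 1.10-fold. Both thresholds, taken from the study, were passed when the limma adjusted p was below 0.05 and the log2 fold change was 1 or more in either direction. Of the 10 members, 3 (RELB, BIRC3 and ICAM1) were higher and 0 were lower by both thresholds, against 7.23% higher, 7.43% lower and 14.7% in either direction among the 15994 genes tested. At the adjusted p alone, 5 members were higher and 0 lower, against 29.3% and 28.3% of tested genes (57.6% in either direction). For 7 members no library of one line reached the range of the other, all higher in NRF2null-KYSE70, against 32.1% of tested genes that were higher and 31.3% that were lower without overlap (63.4% in either direction). The median log2 fold change of the members was 0.18, and that of all tested genes was -0.0070. All 10 members had a mean above 10 normalized counts, the filter on low values, in each line separately.

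**Figure D1:**
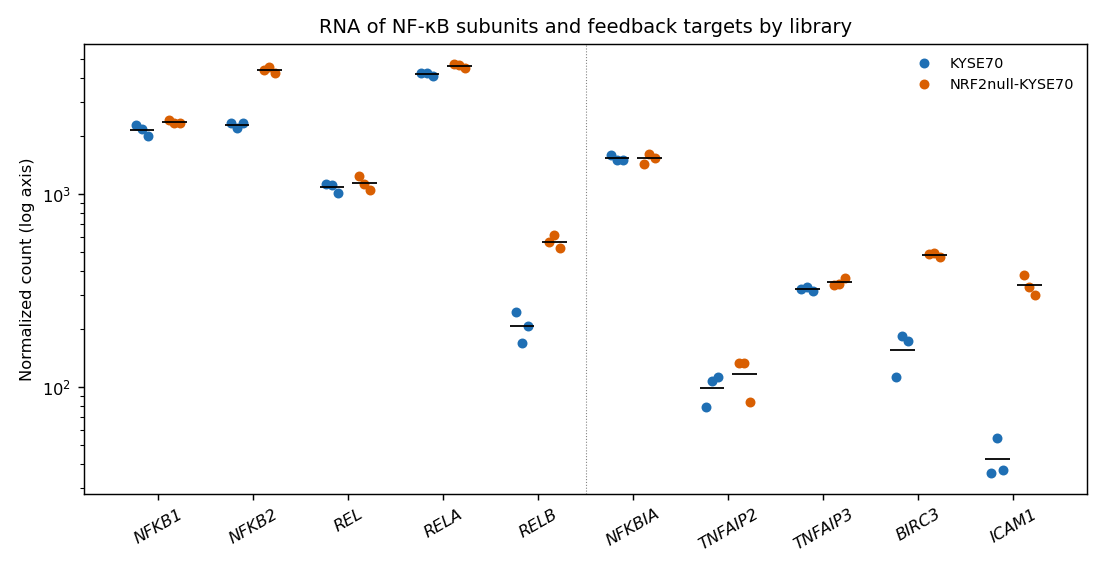
Normalized counts (log axis) of the 10 members in each library. Points are libraries, 3 per line, and black bars are means. The dotted line separates the 5 subunits from the 5 targets. The points of the lines lie farthest apart for ICAM1 (means of 42.3 and 336), BIRC3 (156 and 483), RELB (207 and 566) and NFKB2 (2286 and 4394).

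Members that moved and members that did not both carry the letters of an NF-κB binding site before their start. The 250 bases before each RefSeq start on build GRCh38.p14 were searched on both strands for the κB consensus, which runs from a GGG through a purine, any 2 bases and 2 pyrimidines to a CC. Promoter sequence was at hand for 9 of the 10 members, RELB excepted, in 13 windows. A match was found in 7 of these windows, belonging to 6 members (NFKB1, NFKB2, REL, NFKBIA, TNFAIP3 and BIRC3), and in 9.95% of 34943 windows over all genes. The antioxidant response element, the motif bound by NRF2 and searched as TGACNNNGC, was found before NFKBIA and TNFAIP2 and in 10.9% of all windows. A match is a description of these letters only. The sequences below are shown because they set 3 genes that were higher in NRF2null-KYSE70 (NFKB2, BIRC3, ICAM1) beside 2 feedback genes that did not pass the test (NFKBIA, TNFAIP3). Each is written 5′ to 3′ on the strand of its gene, capitals mark the κB consensus on either strand, and bases in annotated exons of the gene are left out.
NFKB2, the third listed start (chr10:102395455-102395692, plus strand): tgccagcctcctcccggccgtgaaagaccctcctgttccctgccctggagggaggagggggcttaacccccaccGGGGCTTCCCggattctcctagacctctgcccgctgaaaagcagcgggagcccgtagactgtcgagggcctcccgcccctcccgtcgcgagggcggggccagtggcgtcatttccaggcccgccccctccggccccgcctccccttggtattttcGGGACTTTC
BIRC3 (chr11:102317234-102317483, plus strand): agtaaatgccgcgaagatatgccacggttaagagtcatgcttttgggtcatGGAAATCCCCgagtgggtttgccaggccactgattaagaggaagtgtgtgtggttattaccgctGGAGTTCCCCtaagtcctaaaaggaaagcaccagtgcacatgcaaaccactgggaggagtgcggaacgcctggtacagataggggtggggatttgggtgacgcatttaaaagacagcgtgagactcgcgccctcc
ICAM1 (chr19:10270870-10271092, plus strand): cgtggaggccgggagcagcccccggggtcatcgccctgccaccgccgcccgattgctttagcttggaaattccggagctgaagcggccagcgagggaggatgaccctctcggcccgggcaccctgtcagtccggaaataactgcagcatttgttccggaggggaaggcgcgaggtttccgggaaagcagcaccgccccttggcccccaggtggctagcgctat
NFKBIA (chr14:35404750-35404999, minus strand): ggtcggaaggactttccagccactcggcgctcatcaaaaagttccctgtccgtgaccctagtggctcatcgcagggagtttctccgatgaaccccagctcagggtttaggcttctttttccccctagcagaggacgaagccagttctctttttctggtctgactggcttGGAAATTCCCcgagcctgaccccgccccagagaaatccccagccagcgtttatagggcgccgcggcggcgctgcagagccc
TNFAIP3 (chr6:137867009-137867213, plus strand): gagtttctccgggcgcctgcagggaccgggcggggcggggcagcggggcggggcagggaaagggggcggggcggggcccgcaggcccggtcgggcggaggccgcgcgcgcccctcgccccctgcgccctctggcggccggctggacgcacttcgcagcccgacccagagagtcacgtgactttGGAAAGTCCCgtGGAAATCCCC
BIRC3 and TNFAIP3 each had 2 matches, and both genes hold the stretch GGGGATTTCC when read on the opposite strand. NFKBIA had 1 match, 81 to 72 bases before its start, with the letters GGGAATTTCC on the opposite strand. The same letters are found before NFKB1 and REL. With each strand counted, the window before the first NFKB2 start had 0 matches, that before the second had 4 and that before the third had 3. At the third NFKB2 start, the letters of 1 place matched on both strands. A further match, GGGACTTTCC, lay 21 to 12 bases before that start, and its last base, in an exon, is left out above. The full letters of the consensus were not in the ICAM1 window, but its stretch tggaaattcc departs from them at the first base only. Sites that depart from the consensus were not searched for, so a window without a match may still hold a binding site.

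The question of how the subunits differed between the lines was addressed first. NFKB2 encodes p100, the precursor of the p52 subunit and itself an inhibitor of RELB dimers, and lies on chromosome 10 from 102394110 to 102402524 (hg38). Its normalized counts were 2334, 2198 and 2326 in KYSE70 and 4382, 4565 and 4235 in NRF2null-KYSE70. All 3 libraries of the clone were above all 3 of the parent, with means of 2286 ± 76.3 and 4394 ± 165 (SD, n = 3 per line). The difference was 0.94 on the log2 scale with an SE of 0.054 (limma adjusted p = 1.63e-08), which is just under the cut-off of 1.

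RELB, which pairs mostly with the NFKB2 product, is found on chromosome 19, from 45001461 to 45038192. The libraries gave 245, 169.6 and 206 normalized counts in KYSE70 and 559.9, 614 and 524 in NRF2null-KYSE70. The lowest library of the clone had more than the highest library of the parent, and the relative spread was wider in the parent, with 207 ± 37.9 against 566 ± 45.2 (SD, n = 3 per line). On the log2 scale the clone was higher by 1.46 with an SE of 0.14 (limma adjusted p = 2.07e-06). RELB and NFKB2, the genes of the non-canonical dimer, both passed the test in the same direction. These are RNA levels, and the activity of either pathway was not measured.

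RELA encodes the main activating subunit of the canonical dimer and spans 65653599 to 65663090 on chromosome 11. It had 4214, 4242 and 4074 normalized counts in KYSE70 and 4687, 4651 and 4493 in NRF2null-KYSE70. The libraries did not overlap, but the log2 fold change was small, at 0.14 (95% interval 0.038 to 0.25, limma adjusted p = 0.0229). This call was lost under total scaling (adjusted p = 0.251) and quantile normalization (0.13), and when KYSE70 library 3 (0.0881) or NRF2null-KYSE70 library 2 (0.0681) was left out. RELA-DT, a divergent gene on the opposite strand that shares 103 exonic bases with RELA, had between 80.9 and 187 normalized counts.

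NFKB1, whose product p105 is processed to the p50 subunit, lies on chromosome 4 from 102501330 to 102617302. It had 2276, 2178 and 1991 normalized counts in KYSE70 and 2404, 2321 and 2321 in NRF2null-KYSE70. The clone was higher by less than the test required, with a log2 fold change of 0.13 (95% interval -0.0062 to 0.27, limma adjusted p = 0.0943). REL, the gene of c-Rel, is best known from lymphocytes and lies on chromosome 2 from 60881491 to 60931612. It had 1131, 1108 and 1012 normalized counts in KYSE70 and 1237, 1130 and 1053 in NRF2null-KYSE70, ranges that overlapped. Its log2 fold change was 0.071 (95% interval -0.11 to 0.25, limma adjusted p = 0.478). In the annotation, 5702 exonic bases of REL are shared with another gene model on the same strand that was listed at 0 in every library, so the level of REL may lack reads from that stretch.

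The lines also differed in the make-up of the subunit RNA. Normalized counts were divided by the summed length of all annotated exons of each gene, and each subunit was expressed as a share of the 5 in each library. RELA made up 52.1%, 54.3% and 52.6% of the total in KYSE70 and 41.8%, 40.8% and 41.9% in NRF2null-KYSE70. NFKB2 had 28.4% ± 0.952 in the parent and 38.6% ± 0.489 in the clone, and RELB had 4.77% ± 0.786 and 9.26% ± 0.482 (SD, n = 3 per line). NFKB1 had 9.48% ± 0.458 and 7.36% ± 0.236, and REL 4.38% ± 0.186 and 3.27% ± 0.216 (SD, n = 3 per line). The size of a share depends on the length used. Without division by length, NFKB1 had means of 21.7% in KYSE70 and 18.0% in NRF2null-KYSE70, and REL 10.9% and 8.72%. Shares sum to a fixed total, so a lower share of RELA goes with higher shares of NFKB2 and RELB and does not say that RELA fell. NFKB2 and RELB together took between 31.5% and 34.2% in KYSE70 and between 47.3% and 48.95% in NRF2null-KYSE70. None of the 5 shares overlapped between the lines, and each had an exact permutation p of 0.1 (two-sided), the smallest that 3 libraries against 3 allow, so the design could not reach 0.05 for a single share.

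**Figure D2:**
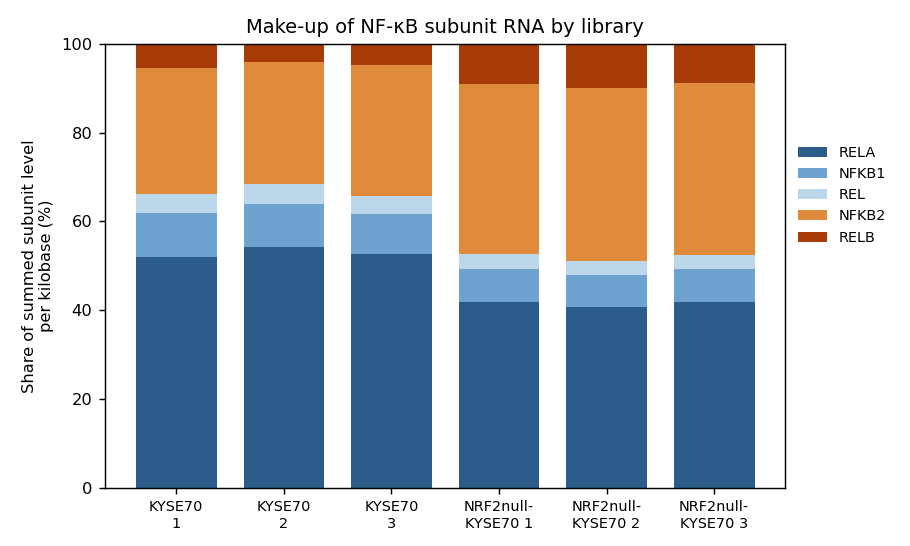
Share (%) of each of the 5 subunits in their summed level per kilobase of exon, for each of the 6 libraries. The upper, orange parts of each bar (NFKB2 and RELB) take 33.1% on average in KYSE70 and 47.9% in NRF2null-KYSE70.

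Ratios of members within each library were computed without any length. The ratio of NFKB2 to NFKB1 normalized counts was 1.025, 1.01 and 1.17 in KYSE70 and 1.82, 1.97 and 1.82 in NRF2null-KYSE70. The ratio of RELB to RELA was 0.05825, 0.0400 and 0.0505 in KYSE70 and 0.1195, 0.132 and 0.117 in NRF2null-KYSE70, a 2.48-fold difference of the means. In both ratios the lowest value of the clone was above the highest of the parent. The ratio of RELB to NFKB2 was also higher, by 1.43-fold. For each of the 5 ratios computed, including BIRC3 and ICAM1 over NFKBIA (3.10-fold and 7.97-fold), the exact permutation p was 0.1, the smallest possible, also after adjustment over the 5. NFKBIA itself had a log2 fold change of -0.0022, so the ratios over it restate the differences of BIRC3 and ICAM1 and add no separate result.

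The targets were compared next, beginning with the inhibitors of the pathway. NFKBIA encodes IκBα, which binds RELA dimers and is among the first genes that NF-κB induces, and lies on chromosome 14 from 35401079 to 35404749. It had 1581, 1507 and 1492 normalized counts in KYSE70 and 1435, 1609 and 1532 in NRF2null-KYSE70. The ranges overlapped and the means were 1527 ± 47.8 and 1525 ± 87.2 (SD, n = 3 per line). The log2 fold change was -0.0022, with a 95% interval from -0.15 to 0.14 (limma adjusted p = 0.980). TNFAIP3 encodes A20, an enzyme that edits ubiquitin chains and ends the signal, and lies on chromosome 6 from 137867214 to 137883314. It had 323, 330.2 and 312 normalized counts in KYSE70 and 338, 341 and 365 in NRF2null-KYSE70. Although these values did not overlap, the log2 fold change of 0.11 did not pass (95% interval -0.13 to 0.35, limma adjusted p = 0.404). The intervals of NFKBIA and TNFAIP3 both lie well inside a change of 1 on the log2 scale.

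BIRC3 encodes cIAP2, an inhibitor of apoptosis that ubiquitinates receptor-bound signaling proteins and NIK, and lies on chromosome 11 from 102317484 to 102339403. It had 113, 182 and 172 normalized counts in KYSE70 and 486, 493 and 470.3 in NRF2null-KYSE70. All libraries of the clone lay above those of the parent, in which library 1 was the lowest. On the log2 scale the clone was higher by 1.66 with an SE of 0.17 (limma adjusted p = 3.33e-06). It ranged from 1.44 to 1.79 when single libraries were left out, and passed both thresholds each time.

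ICAM1, the adhesion molecule that binds leukocyte integrins, lies on chromosome 19 from 10271093 to 10286615 and showed the largest difference of the 10 members. It had 35.6, 54.4 and 36.9 normalized counts in KYSE70 and 378, 330.5 and 299 in NRF2null-KYSE70. All libraries of the clone lay above those of the parent, where 135 reads were counted in all and no library held fewer than 35. On the log2 scale the clone was higher by 2.98 with an SE of 0.21 (limma adjusted p = 9.65e-08). ICAM4-AS1, an antisense gene that shares 815 exonic bases with ICAM1, had between 2.94 and 13.6 normalized counts. Whether reads were counted by strand is not given in the sources used here.

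TNFAIP2, a cytoplasmic protein first found as induced by tumor necrosis factor, lies on chromosome 14 from 103121476 to 103137439. It had 78.3, 107 and 112 normalized counts in KYSE70 and 133, 132 and 83.3 in NRF2null-KYSE70. The third library of the clone lay within the range of the parent, so the groups overlapped. The log2 fold change was 0.21, with the widest interval of the members, -0.30 to 0.73 (limma adjusted p = 0.464).

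**Figure D3:**
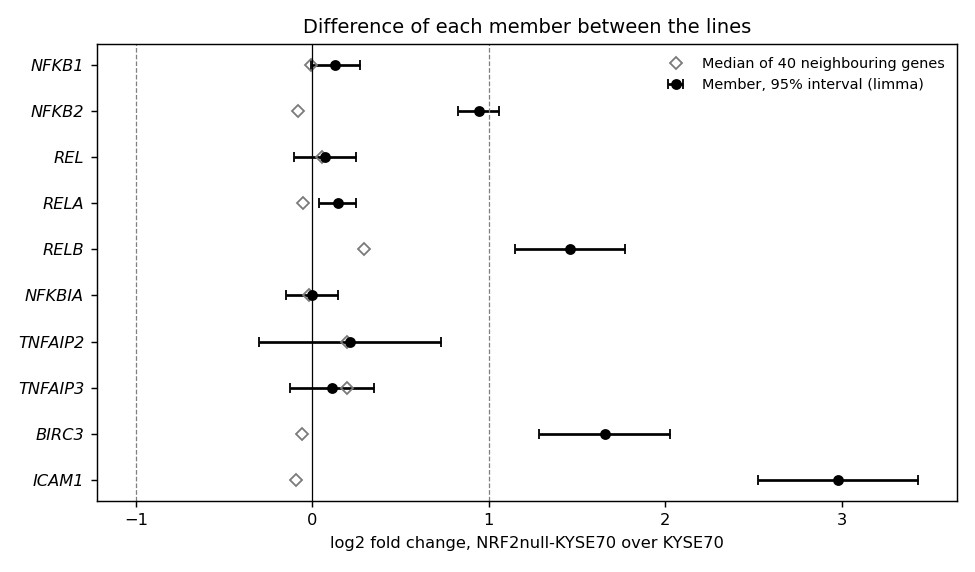
Log2 fold change of each member, NRF2null-KYSE70 over KYSE70, as black points with 95% intervals from limma. Open diamonds are the median log2 fold change of the 40 nearest tested protein-coding genes, and dashed lines mark a log2 fold change of 1 in each direction. The intervals of RELB, BIRC3 and ICAM1 lie wholly above 1 (lower ends at 1.15, 1.29 and 2.52), and that of NFKB2 (0.82 to 1.06) spans it.

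Genes along a stretch of chromosome can differ together between a clone and its parent, so each member was set beside its neighbors. The median log2 fold change of the 40 nearest tested protein-coding genes was 0.29 around RELB, 0.20 around TNFAIP2 and 0.19 around TNFAIP3. It was -0.083 around NFKB2, -0.057 around BIRC3 and -0.095 around ICAM1. After subtraction of these medians, the log2 fold change was 1.17 for RELB (limma adjusted p = 1.91e-05), 1.03 for NFKB2 (8.93e-09), 1.71 for BIRC3 (3.17e-06) and 3.07 for ICAM1 (9.32e-08). With this subtraction NFKB2 also passed both thresholds, so that 4 members passed. BIRC3 lies 7807 bases from BIRC2, the gene of cIAP1, which had a log2 fold change of -0.23 (limma adjusted p = 0.00181), so these neighboring paralogs moved in opposite directions.

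Levels were compared between members per kilobase of exon. In KYSE70 the order was RELA (765), NFKBIA (449.8), NFKB2 (409), NFKB1 (137), RELB (69.0), REL (63.3), TNFAIP3 (49.9), BIRC3 (20.8), TNFAIP2 (19.6) and ICAM1 (12.3 normalized counts per kilobase). RELB did not differ from REL beyond the spread of the libraries, nor BIRC3 from TNFAIP2, nor TNFAIP2 from ICAM1. RELA thus had 62.4 times the level of ICAM1. In NRF2null-KYSE70, NFKB2 was second (787), after RELA (845), and RELB (189) was above NFKB1 (149.8). ICAM1 (97.4) was sixth, and only BIRC3 (64.6) and REL (66.5) overlapped as neighbors in that order. Some places turned with the length used. Per kilobase of canonical transcript NFKB1 had 579 and RELB 251 in NRF2null-KYSE70, and TNFAIP3 (74.6) was above BIRC3 (70.3). In KYSE70 REL was then above RELB, within their spread, and per kilobase of longest transcript NFKB2 (670.2) was above NFKBIA (596).

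The remaining genes of the pathway were taken from 8 lists of 101 genes, of which 73 passed the filter on low values. By both thresholds 14 of the 73 were higher and 9 lower in NRF2null-KYSE70, against 7.23% and 7.43% of all tested genes. At the adjusted p alone 34 were higher and 17 lower, against 29.3% and 28.3%. Of the tested pathway genes, 3 (TLR4, TLR5 and PLAU) had a mean under 10 in one of the lines and passed the filter through the other line alone. These counts describe the lists, which were chosen with earlier results of these data known, and are no test of them. Both interleukin-1 genes and their signaling receptor rose. IL1B, the secreted interleukin-1β, had 17.8, 27.2 and 38.0 normalized counts in KYSE70 and 731, 783 and 630.2 in NRF2null-KYSE70, a log2 fold change of 4.70 (limma adjusted p = 5.53e-09). IL1A, with a mean of 424 ± 71.3 normalized counts in the parent and 4389 ± 356 in the clone (SD, n = 3 each), rose by 3.38 on the log2 scale (limma adjusted p = 6.22e-11). Of 11 ligands 3 were tested, and the other, TNFSF10, the death ligand TRAIL, fell by 2.03 on the log2 scale. TNF itself had means of 1.90 and 2.50 normalized counts and was not tested. TNFSF12, the gene of the ligand TWEAK, was at 0 in every library.

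Of 16 receptors, 11 were tested, with 2 higher and 4 lower by both thresholds, against 7.23% and 7.43% of all tested genes. IL1R1, the signaling receptor of interleukin-1, rose 2.48-fold, with a log2 fold change of 1.30 (limma adjusted p = 9.57e-05). TNFRSF12A, the receptor of TWEAK, rose from a mean of 2771 ± 96.5 in KYSE70 to one of 5595 ± 351 in the clone (SD, n = 3 per line). Its log2 fold change of 1.01 fell under the cut-off with other scalings, to 0.94 under total scaling. LTBR, the lymphotoxin receptor, passed the adjusted p with a log2 fold change of 0.47 (1.87e-05). TNFRSF11A, another receptor on the list, was lower, with a log2 fold change of -0.79 (limma adjusted p = 0.0109). Of the Toll-like receptors on the list, TLR1 and TLR2 were not tested. TLR4, the receptor of bacterial lipopolysaccharide, had 285, 258 and 319.5 normalized counts in KYSE70 and 4 reads in all in the libraries of NRF2null-KYSE70, and TLR6 had a log2 fold change of -1.31 (limma adjusted p = 0.00441). TLR3, a receptor of double-stranded RNA, had one of -2.60 (0.000831). TLR5, a receptor of flagellin, had 80 reads in all in KYSE70 and 13 in NRF2null-KYSE70, and passed the filter through KYSE70 alone.

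Among 10 IκB kinase and associated kinase genes, all tested, 1 was higher and 0 lower by both thresholds, against 7.23% and 7.43% of all tested genes. At the adjusted p alone 5 were higher and 3 lower, or 8 in all, against 29.3%, 28.3% and 57.6% of all tested genes. MAP3K14, the gene of NIK, had 1001, 1001 and 977.5 normalized counts in KYSE70 and 1549, 1637 and 1547 in NRF2null-KYSE70, and its log2 fold change of 0.67 passed the adjusted p (2.23e-06). CHUK, the IKKα subunit on which NIK acts, had a log2 fold change of 0.14 (limma adjusted p = 0.0268), IKBKB, the IKKβ subunit of the canonical pathway, -0.38 (0.000476), and IKBKG, the regulatory subunit, -0.065 (0.482). The CHUK call was lost under 6 of 17 alternatives, with adjusted p-values from 0.0534 (limma without the trend) to 0.268 (total scaling). IKBKG has a near-identical pseudogene copy, so its count is uncertain. TAB3, an adaptor of the kinase TAK1, rose 2.09-fold. Of 16 receptor adaptors, 1 was higher and 2 lower by both thresholds, against 7.23% and 7.43% of all tested genes. MALT1, a protease of the CARD-BCL10 complex, rose from a mean of 2430 ± 48.9 in KYSE70 to one of 5762 ± 355 in the clone (SD, n = 3 per line), and the median log2 fold change of its neighbors was -0.54. TRAF5 fell by 2.65 on the log2 scale (limma adjusted p = 4.19e-07). TRAF3 had a log2 fold change of 0.33 (limma adjusted p = 0.00481). TRAF2, another of the adaptors, was lower, with a log2 fold change of -0.32 (limma adjusted p = 0.000956).

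Among the other IκB genes, 1 of 5 passed the adjusted p, against 57.6% of all tested genes, and none passed both thresholds, against 14.7%. BCL3, a nuclear IκB protein that works with NFKB1 and NFKB2 dimers, had 864, 811 and 835 normalized counts in KYSE70 and 1266, 1359 and 1321 in NRF2null-KYSE70, without overlap. Its log2 fold change was 0.65 (limma adjusted p = 5.78e-06), and the median of its neighbors, which lie near those of RELB, was 0.31. NFKBIB, NFKBIE and NFKBIZ had log2 fold changes of -0.047, 0.054 and 0.055, and the limma adjusted p-values were 0.640, 0.736 and 0.606. For each of these genes the libraries of the lines overlapped. Of 10 tested genes of ubiquitin editing, 7 were higher and 1 lower at the adjusted p alone, against 29.3% and 28.3% of all tested genes, and RBCK1, a subunit of the linear ubiquitin ligase, was the only gene past both thresholds. RBCK1 had a log2 fold change of -1.02, while the median of its 25 neighbors on chromosome 20 was -0.99.

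Other targets that NF-κB is known to induce differed in both directions. Of 22 inflammatory targets, 10 were tested, with 3 higher and 1 lower by both thresholds, against 7.23% and 7.43% of all tested genes. PTGS2, the inducible cyclooxygenase, had 110.3, 88.0 and 96.0 normalized counts in KYSE70 and 2318, 2141 and 2344 in NRF2null-KYSE70, a log2 fold change of 4.52 (limma adjusted p = 7.04e-12). The neutrophil attractants CXCL8 and CXCL1 rose 16.3-fold and 7.41-fold. CXCL1 has closely similar family members, and CXCL2 was listed at 0 in every library, so reads of these genes may have been split. LCN2, an iron-binding protein of inflamed epithelium, fell by 2.08 on the log2 scale (limma adjusted p = 8.39e-05). Of 10 survival targets, 8 were tested, and 5 were higher (PLAU among them) and 0 lower by both thresholds, against 7.23% and 7.43% of all tested genes. GADD45B, IER3 and BCL2L1, which restrain cell death, rose 4.86-fold, 3.01-fold and 2.19-fold.

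**Figure D4:**
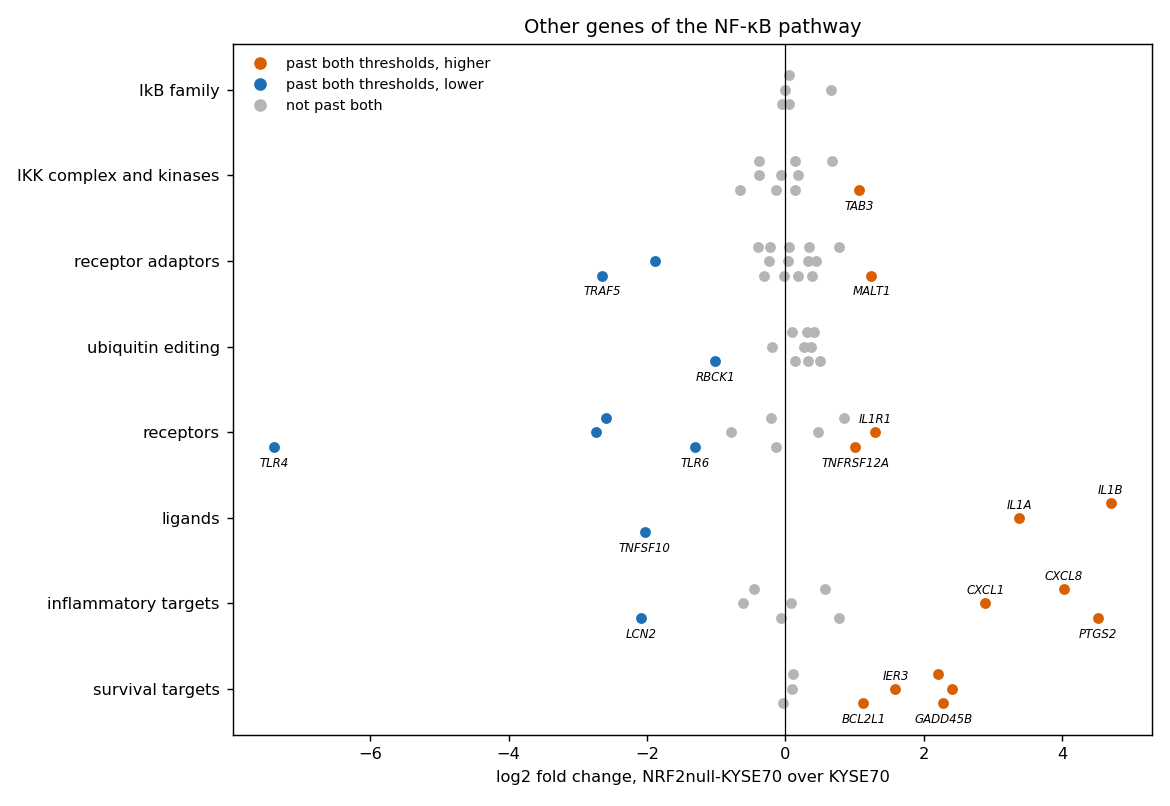
Log2 fold change, NRF2null-KYSE70 over KYSE70, of each of the 73 tested pathway genes, in rows by list. Orange points passed both thresholds as higher (14 genes), blue points as lower (9 genes), and grey points did not pass both. Of all tested genes, 7.23% passed as higher and 7.43% as lower. Points are spread vertically within a row for legibility, and the labels name genes described in the text. Survival targets have 5 orange points and no blue ones, and the IκB family has none of either.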

How the data were processed

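RNA of KYSE70 and NRF2null-KYSE70 cells (3 libraries each, groups from the sample titles) was sequenced by the study. After quality filtering, the authors used STAR (version 2.6.90c) with the hg38 genome and featureCounts (version 1.5.1) for counts per gene, which were normalized with DESeq2. The deposited values are a signal in normalized counts, that is, counts divided by 1 size factor per library. Strand setting and treatment of multi-mapping reads are not given in the sources used here. Columns carry the line but no replicate number, and libraries are numbered by their order in the table. Whole reads were recovered, since 100% of values above 0 were whole multiples, within 0.01, of the value of 1 read (0.889 to 1.14).

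Differences were tested with limma (version 3.58.1; lmFit, eBayes with trend) on log2(normalized count + 1), fitted over the 15994 genes with a mean of at least 10, with Benjamini-Hochberg adjustment over all of them. Tests were two-sided. Nothing in the labels says that the libraries came from separate cultures, so p-values measure the spread between these libraries. Fold changes on this scale understate the change of genes with few reads, and folds given as such are ratios of mean normalized counts. The limma code was tested on simulated data. edgeR (version 4.0.16) and DESeq2 (version 1.42.0) on the recovered reads, other pseudocounts, filters and scalings, left-out libraries and centring on neighboring genes were alternatives. Genes named are the 10 members, NFE2L2, 8 IκB and kinase genes listed by name, and in each of the 8 pathway lists up to 4 genes with the largest changes past both thresholds whose mean reached 50 and whose lines did not overlap. BIRC2, LTBR, TNFRSF11A, PLAU, TNF, TNFSF12, TRAF2, TRAF3, TLR3, TLR5, TLR1, TLR2, CXCL2 and the marker genes were named after their values were seen. The members and lists were chosen with earlier results of these data known. Positions and lengths came from GENCODE v44 (hg38), and promoter sequences from RefSeq (GRCh38.p14).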

Additional observations from a re-analysis of the deposited data

How the results depend on the processing

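RELB, BIRC3 and ICAM1 passed both thresholds under each of the 18 alternatives, which included edgeR, DESeq2 and 6 fits without 1 library. Their log2 fold changes ranged from 1.17 to 1.59, from 1.44 to 1.79 and from 2.87 to 3.17. NFKB2 ranged from 0.87 to 1.03 and had an adjusted p under 0.05 throughout, and it passed both thresholds after centring on neighboring genes (1.03). The count of members higher was 3 or 4 and that of members lower was 0. Members with an adjusted p under 0.05 numbered 4 or 5, since RELA lost its call 4 times. Of the pathway genes, 12 to 15 were higher and 6 to 11 lower over the alternatives.

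Small differences changed sign for some genes that did not pass the test. These were REL (-0.0041), NFKBIE (-0.022) and NFKBIZ (-0.020) under total scaling, which shifted all genes by a median of -0.075, and NFKBIA (0.015) and TNFAIP3 (-0.081) after centring. With single libraries left out, NFKBIA ranged from -0.042 to 0.041 and NFKBIE from -0.037 to 0.105. TNFRSF12A, TAB3 and RBCK1 fell under the cut-off on the fold change under some alternatives, with lowest absolute values of 0.94, 0.99 and 0.99. TLR4 ranged from -9.69 to -5.58 with the pseudocount, since it rests on 4 reads in NRF2null-KYSE70.

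Lengths changed levels between genes. RELA had 62.4 times the level of ICAM1 in KYSE70 per kilobase of all exons, 92.0 times with the longest transcript and 116 times with the canonical transcript, an alternative chosen after seeing the data. The joint share of NFKB2 and RELB differed by 14.8 percentage points per kilobase of exon, 12.8 without division by length and 13.4 with the canonical transcript. No paired analysis was possible because no column of normalized counts names its replicate. TNFAIP2 held 73 to 135 reads per library, and its 95% interval reached 0.73 on the log2 scale.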

Other observations

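Pairs of pathway genes that lie close together were set side by side. On chromosome 11, BIRC3 and BIRC2, the genes of cIAP2 and cIAP1, are 7.81 kb apart and had log2 fold changes of 1.66 and -0.23. On chromosome 19, RELB and BCL3 are 241 kb apart and had log2 fold changes of 1.46 and 0.65, and ICAM1, on the same chromosome and 34.7 Mb from RELB, had one of 2.98. On chromosome 2, IL1A and IL1B are 45.3 kb apart and had log2 fold changes of 3.38 and 4.70, with a median of 0.080 over their neighbors. On chromosome 4, CXCL8 and CXCL1 are 126 kb apart and had values of 4.02 and 2.89, with a median of 0.38 over their neighbors. RELA and BIRC3 share chromosome 11 at a distance of 36.7 Mb, and NFKBIA and TNFAIP2 share chromosome 14 at 67.7 Mb.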
